A study of Mus musculus with 2 samples.

Results

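The forkhead genes are a family of transcription factor genes, and 43 of them other than Foxa1 were described here by how open their chromatin was in mouse urinary bladder. Members were all protein-coding genes whose symbol is Fox, one letter from a to s and a digit, which gave 43 of 21938 protein-coding genes in the GENCODE M21 annotation of mm10. Foxa1 was left out by rule. The rule uses symbols and no measured value, although the family was picked with earlier results of these data known.

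DNase-seq maps accessible chromatin by the places where the enzyme DNase I cuts DNA in nuclei. The tissue was whole urinary bladder of male B6CASTF1/J mice, the first-generation hybrid of C57BL/6J and CAST/EiJ, at 14 days of age. The label of replicate 1 names a male, in the singular, and that of replicate 2 names 3 males pooled together. All samples formed 1 group with no treatment or mutation, so no conditions were compared, and each value below is given for both replicates or as mean ± SD (n = 2). Whole tissue mixes cell types, so a site open in few cells and a site weakly open in many cannot be told apart.

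Forkhead proteins share a winged-helix DNA-binding domain that reads sequences close to TGTTTAC, and some members can bind it within closed chromatin. The FoxO proteins are switched off by insulin and PI3K signalling, FoxM1 drives genes of mitosis, and the FoxF proteins act in the mesenchyme of hollow organs below Hedgehog signals from the epithelium. In the bladder, that epithelium is the urothelium and the mesenchyme gives rise to fibroblasts and smooth muscle.

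The looser of the deposited peak lists held 139821 peaks in replicate 1 and 82225 in replicate 2, and the stricter list held 87441 and 50869. Median peak signals were 0.687 and 0.887. The signal is the authors' density per peak, with a normalization not given in the sources used here, and its values were whole multiples of a step of 0.00521 in replicate 1 and 0.00799 in replicate 2. Where an interval is given below, it is the Poisson 95% interval that holds if 1 step is 1 cut, and it covers counting error only. A promoter was called open where overlapping looser-list peaks of both replicates lay within 1 kb of any of the gene's transcription start sites. Its signal in each replicate was that of the strongest looser-list peak within this distance, overlapping or not. By this rule 10 of 10 urothelial, 8 of 8 smooth muscle and 6 of 6 fibroblast marker genes were open. So were 3 of 6 endothelial markers (Kdr, Erg and Tek, not Cdh5, Emcn or Pecam1) and 0 of 6 liver genes.

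Of the 43 forkhead genes, 31 had an open promoter (72.1%), beside 66% of all protein-coding genes. With the stricter list 27 did, beside 61.7% of all genes. Taken alone, each replicate had a promoter peak at 33 members, beside 70.5% of all genes in replicate 1 and 66.9% in replicate 2. When a peak counted only for the coding gene with the nearest start, 29 members were open, beside 62.3%, without Foxm1 and Foxp3. The median signal of the 31 was 3.795, and that of all open protein-coding genes was 4.62. Their signals ran from 0.348 at Foxb1 to 15.6 at Foxn3. A promoter peak of replicate 1 alone was found at 1 member (Foxb2), one of replicate 2 alone at 1 (Foxe1), beside 4.18% and 0.57% of all genes, and peaks of both that did not overlap at 1 (Foxd3). Foxh1, Foxi1, Foxi2, Foxl1, Foxn4, Foxq1, Foxr1 and Foxr2 had no promoter peak in either replicate. All protein-coding genes were without a promoter peak in 29% of cases. At Foxh1, Foxi1, Foxl1, Foxn4, Foxq1, Foxr1 and Foxr2 the false discovery rate (FDR) track listed no position under 0.05 within 1 kb of a start in either replicate, and at Foxi2 it listed 7 bp in replicate 1 with a lowest FDR of 0.0469.

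The members were divided into groups by where they are known to act, and each count below stands beside the 66% of all genes and the 96.4% of CpG-rich promoters, those with many CG dinucleotides, that were open. All 15 in a group of mostly widely expressed genes were open, with a median signal of 5.49, and 14 of them were CpG-rich. This group also held Foxp3 of regulatory T cells and Foxo6, best known from the brain. When a peak counted only for the coding gene with the nearest start, 13 of the 15 were open. In the group of mesenchyme, vessel and kidney stroma it was 7 of 8, with a median of 2.64, and 7 of the 8 were CpG-rich. In endoderm and epithelium it was 5 of 9, with a median of 0.946, and only 3 of the 9 were CpG-rich. Promoters that are not CpG-rich were open in 41.7% of all cases. For nervous system, lens and early embryo the count was 3 of 8, with a median of 0.458 and no member in the stricter list. The strongest peaks of those 3 were centred over 500 bp downstream of the start. Of these 8, 5 were CpG-rich. In gonad and germ line it was 1 of 3, and 2 of the 3 were CpG-rich.

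**Figure D1:**
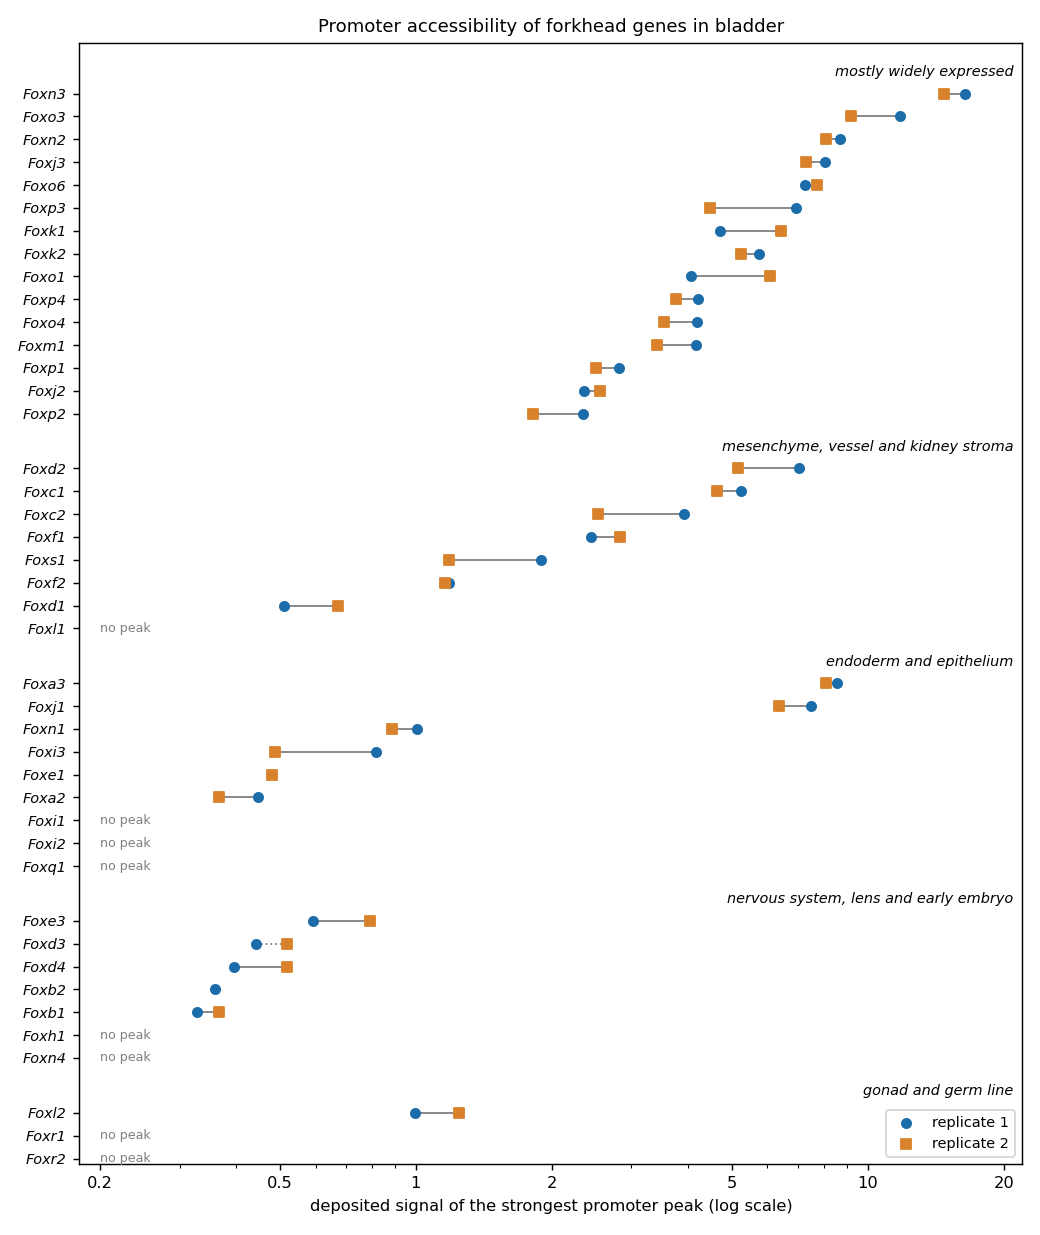
Deposited signal of the strongest peak within 1 kb of a start for each forkhead gene described, on a log axis, with circles for replicate 1 and squares for replicate 2 and a line joining both (dotted at Foxd3, where the peaks did not overlap). Members are grouped by where they are known to act, and the 15 of the mostly widely expressed group lie between mean signals of 2.08 and 15.6 while the 3 open members of the nervous system, lens and early embryo group lie at 0.692 or lower. Foxo6, best known from the brain, is placed in the mostly widely expressed group.

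The FoxO genes encode the forkhead factors that Akt keeps out of the nucleus when insulin signalling is on. Foxo3 had a promoter signal of 11.8 in replicate 1 and 9.18 in replicate 2, or 10.5 ± 1.85. Its intervals were 11.3 to 12.3 and 8.65 to 9.72. The peak was centred 1026 bp upstream of the start in replicate 2, at the edge of the window, and the strongest peak within 500 bp had a mean signal of 4.73. Foxo6, a member best known from the brain, had 7.25 and 7.74. Foxo1 had 4.06 and 6.08, with intervals of 3.78 to 4.36 and 5.66 to 6.53, so that replicate 2 was the higher beyond counting error. Foxo4 had 4.18 and 3.53. All 4 were open in both peak lists.

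The Foxo4 promoter peak, chrX:101254041-101254220, is shown because it held the forkhead sequence itself, as TGTTTAC on the minus strand and so as gtaaaca below. It ended 308 bp before the annotated start. Capitals mark bases in footprints, which are short stretches protected from cutting, found in both replicates; here and below the sequence is that of RefSeq GRCm38.p6, printed along the gene's strand.
Foxo4 promoter: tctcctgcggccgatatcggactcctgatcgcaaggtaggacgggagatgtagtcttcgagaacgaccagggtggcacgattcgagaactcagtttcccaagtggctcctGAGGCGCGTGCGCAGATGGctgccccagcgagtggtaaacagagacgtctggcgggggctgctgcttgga
The 1 shared footprint covered 19 bases and did not touch the forkhead sequence.

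The genes that carry insulin signals to the FoxO proteins were open in 15 of 15 cases, beside 66% of all genes, with a median of 7.75. Of these 15, 11 were CpG-rich, a class open in 96.4% of all its genes. Among them were Insr, the insulin receptor, at 7.08 ± 1.34, and Sgk1, a kinase that like Akt acts on FoxO proteins, at 11.2 ± 1.63. Of 15 known FoxO target genes 12 were open, beside the same 66%, with a median of 7.60, and 9 of the 15 were CpG-rich. Sod2, which encodes the mitochondrial superoxide dismutase, stood at 13.0 ± 2.15. The exceptions were the liver gene G6pc with no peak, Pck1 with a peak in replicate 2 only and the muscle gene Trim63 with one in replicate 1 only.

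Foxm1, the activator of mitotic genes, had 4.18 in replicate 1 and 3.41 in replicate 2. Its peak was centred 116 bp from its own start and 17 bp from that of Rhno1 on the opposite strand, so that the signals of the 2 genes cannot be told apart. All 10 listed FoxM1 targets were open, and 9 of them were CpG-rich, a class open in 96.4% of cases. They had a median of 4.46 and a range from Plk1, a mitotic kinase, at 3.02 ± 0.917 to Cenpf, a kinetochore gene, at 10.4 ± 2.19.

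Foxn3, a repressor linked to cell cycle checkpoints, had the highest promoter signal of the family, 16.5 in replicate 1 and 14.7 in replicate 2. This value was above that of 98.9% of all open genes. It lay 921 bp downstream of the nearest start, at an internal pair of GENCODE starts (chr12:99393072-99393797), whereas the starts at the 5′ end of the gene had 1.65 and 1.61. With RefSeq starts, by which 30 members were open beside 65.8% of all genes, Foxn3 was not. Foxn2, a close relative, had 8.67 and 8.10 at its own start.

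The forkhead genes Foxk1 and Foxk2 encode factors that repress autophagy genes and bind with cofactors through a second, phosphopeptide-binding domain. Foxk1 had 4.72 and 6.44, again the higher in replicate 2 beyond counting error, and Foxk2 had 5.75 and 5.24. Foxj3, known from muscle metabolism, had 8.06 and 7.31, at a peak 22 bp from the start of Frg2f1 on the opposite strand and 110 bp from its own. Foxj2 had 2.36 and 2.55, but the strongest peaks of the replicates lay at 2 different starts, each of them open.

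The FoxP genes form a subfamily with a leucine zipper, used for pairing with each other. Foxp4, known from lung epithelium, had 4.22 and 3.76. Foxp1, which acts in endothelium, muscle and lymphocytes, had 2.82 and 2.50. Foxp2, known for its role in vocal learning circuits, had 2.34 and 1.81. Their many start clusters were open in part, 4 of 11 at Foxp1, 2 of 6 at Foxp2 and 2 of 3 at Foxp4. In all 3 genes the strongest peak was at the 5′ end of the gene. Foxp3, the defining factor of regulatory T cells and thus an exception within its group, had 6.93 and 4.48. That peak was centred 767 bp from the GENCODE start of Foxp3 and 128 bp from the start of Ppp1r3f, and Foxp3 had no peak within 1 kb of its RefSeq starts.

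In the mesenchymal group, Foxd2, which acts in kidney and facial mesenchyme, had the highest signal, 7.05 in replicate 1 and 5.17 in replicate 2. Foxc1, needed in blood vessels, the eye and the urinary tract, had 5.24 and 4.63. Foxc2, which acts in lymphatic valves and mesenchyme, had 3.92 and 2.53. Foxf1, the Hedgehog-responsive factor of visceral mesenchyme, had 2.44 and 2.83, and its relative Foxf2 had 1.18 and 1.16. Within 1 kb of the peaks of Foxd2, Foxf1 and Foxf2 lay starts of noncoding genes on the opposite strand, and the signals were not separated. At Foxf2 the start nearest to the region was such a start and not its own. Foxs1, known from pericytes, had 1.89 and 1.18. Foxd1, a marker of kidney stroma, was the lowest at 0.510 and 0.672. The strongest Foxd1 peaks of the replicates did not overlap, although other peaks there did. Foxl1, which marks stromal cells beneath the gut epithelium, had no promoter peak.

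The promoter peaks of 4 of these genes are shown because they are the strongest within 1 kb of the starts of mesenchymal members with a wide range of signals. The Foxf1 stretch ended 436 bp before its start, and a weaker region centred 65 bp upstream of that start is not printed. For Foxc1 and Foxc2 only the bases before the annotated start are printed. The regions are chr4:114908901-114909080 for Foxd2, chr13:31806481-31806632 for Foxc1, chr8:121116021-121116170 for Foxc2 and chr8:121083651-121083950 for Foxf1. Capitals again mark footprints of both replicates.
Foxd2 promoter: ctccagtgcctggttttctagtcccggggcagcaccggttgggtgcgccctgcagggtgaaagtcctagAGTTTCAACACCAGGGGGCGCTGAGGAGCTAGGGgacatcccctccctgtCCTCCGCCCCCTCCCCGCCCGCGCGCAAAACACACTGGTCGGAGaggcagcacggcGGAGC
Foxc1 promoter: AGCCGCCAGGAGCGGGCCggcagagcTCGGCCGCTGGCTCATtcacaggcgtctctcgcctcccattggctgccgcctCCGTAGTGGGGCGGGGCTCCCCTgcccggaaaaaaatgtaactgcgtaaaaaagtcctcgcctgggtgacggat
Foxc2 promoter: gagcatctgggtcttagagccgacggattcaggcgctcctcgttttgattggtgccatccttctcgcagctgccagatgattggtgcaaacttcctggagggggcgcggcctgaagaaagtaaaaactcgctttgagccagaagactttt
Foxf1 promoter: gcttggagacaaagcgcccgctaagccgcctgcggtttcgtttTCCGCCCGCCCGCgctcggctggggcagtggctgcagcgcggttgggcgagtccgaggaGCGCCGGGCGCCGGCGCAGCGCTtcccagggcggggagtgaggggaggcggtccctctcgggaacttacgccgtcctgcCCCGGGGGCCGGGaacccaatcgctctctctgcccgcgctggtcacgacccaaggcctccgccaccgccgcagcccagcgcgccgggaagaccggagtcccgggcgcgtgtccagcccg
All 4 were rich in G and C, from 53.3% at Foxc2 to 75% at Foxf1. Foxd2, Foxc1 and Foxf1 each had 3 shared footprints, over 83, 57 and 49 bases, and the printed Foxc2 stretch had none. The stretches of Foxd2, Foxc1 and Foxf1, which are 180, 152 and 300 bases long, held the GC box GGGCGG on either strand, which 48.8% of all promoter regions held within 200 bp at their centre. The CCAAT box was in Foxc1, Foxc2 and Foxf1, beside 24% of promoter regions. None held TGTTTAC, which says only that these letters are not in these windows.

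The genes of Hedgehog signalling to FoxF were open in 12 of 12 cases, beside 66% of all genes, with a median of 2.58 beside 4.62 for all open genes. Of the 12, 7 were CpG-rich. They included the ligand Shh at 1.32 ± 0.0610, its receptor Ptch1 at 3.02 ± 0.418 and the transcription factors Gli1 at 3.96 ± 1.20, Gli2 at 3.75 ± 0.471 and Gli3 at 2.15 ± 0.108. Bmp4, a signal made by bladder mesenchyme, stood at 4.43 ± 0.577. Ihh, the other ligand listed, was the lowest at 0.504 ± 0.000979.

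Foxf1, Foxc2 and Foxl1 lie side by side on chromosome 8. Within 50 kb of the 3 genes, chr8:121034386-121180644, there were 14 regions with peaks of both replicates, called shared regions below. Another 6 were found in replicate 1 only and 0 in replicate 2 only. The density was 9.57 shared regions per 100 kb. They held 24 shared footprints. The highest signal belonged to a gene outside the family, Mthfsd, whose promoter had 13.3 and 11.3. Next came a region 2660 bp upstream of Foxc2, chr8:121113401-121113620, with 8.58 in replicate 1 and 7.81 in replicate 2. It was more accessible than the Foxc2 promoter itself in both replicates and above 95.8% of all shared regions. The third in order was a region in an exon of Mthfsd, chr8:121092781-121092960, with 4.32 and 2.81.

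The region upstream of Foxc2 is shown as the strongest of the neighbourhood away from any start, along the plus strand, with shared footprints in capitals.
Upstream of Foxc2: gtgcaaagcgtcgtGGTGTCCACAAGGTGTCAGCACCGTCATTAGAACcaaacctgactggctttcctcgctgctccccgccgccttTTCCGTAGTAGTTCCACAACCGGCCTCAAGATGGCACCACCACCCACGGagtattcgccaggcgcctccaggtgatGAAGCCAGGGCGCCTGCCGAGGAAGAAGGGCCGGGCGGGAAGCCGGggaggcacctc
Its 3 footprints covered 129 of 220 bases. It held a GC box, an E-box, CANNTG, and, near its start, the alternative forkhead core GACGC on the other strand. Within 200 bp at their centre these were in 11.2%, 71.6% and 10.3% of all distal regions, meaning those centred over 1 kb from any start. The GACGC match here reached beyond the central 200 bp, so by that measure this region held only the GC box and the E-box.

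Foxl1 had no promoter peak, but 2 shared regions lay 2539 and 2259 bp upstream of it. The first, chr8:121125301-121125500, had 1.99 and 1.81, and the second, chr8:121125561-121125800, had 2.42 and 1.69. Upstream of Foxf1 the start of Fendrr, a noncoding RNA read in the opposite direction, had a region with 1.09 in both replicates. Foxf1 itself had 2 regions, at 585 and 65 bp upstream, and the nearer had 1.59 and 1.42.

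**Figure D2:**
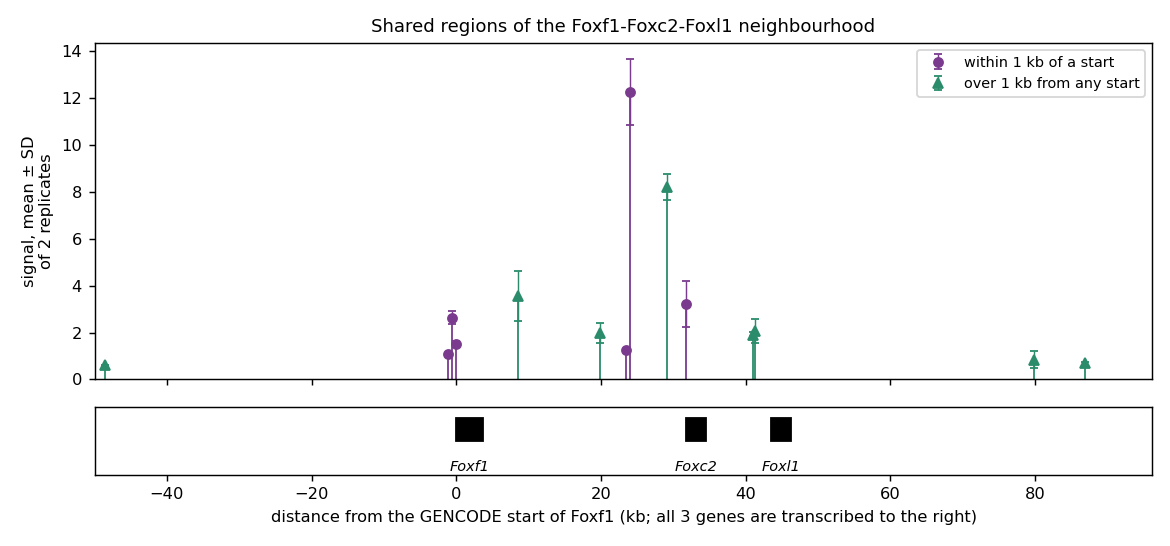
Shared regions around Foxf1, Foxc2 and Foxl1, with mean signal and SD of the 2 replicates on the vertical axis and distance from the start of Foxf1 in kb on the horizontal one; circles are regions centred within 1 kb of a start and triangles the others, and black boxes are the 3 genes. The tallest circle is the Mthfsd promoter at 12.3 and the tallest triangle the region upstream of Foxc2 at 8.20.

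The second neighbourhood, of Foxq1, Foxf2 and Foxc1 on chromosome 13, was longer but similarly dense. In chr13:31506134-31862476 there were 35 shared regions, 16 of replicate 1 only and 3 of replicate 2 only. The density was 9.82 shared regions per 100 kb, with 48 shared footprints. The strongest region lay 5262 bp upstream of Foxc1, chr13:31801281-31801460, with 6.12 and 4.94, close in size to the Foxc1 promoter at 5.24 and 4.63. Another, 37633 bp upstream of Foxq1, chr13:31518401-31518600, had 3.67 and 2.81. A region 6845 bp downstream of the start of Foxf2, chr13:31632581-31632740, had 3.59 and 2.17, more than its promoter at 1.18 and 1.16.
Upstream of Foxc1: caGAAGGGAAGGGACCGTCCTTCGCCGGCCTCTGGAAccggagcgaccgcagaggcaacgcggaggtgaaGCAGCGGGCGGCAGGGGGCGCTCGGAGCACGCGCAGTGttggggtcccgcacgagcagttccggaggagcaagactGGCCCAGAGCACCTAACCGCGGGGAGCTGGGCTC
This region, printed along the plus strand because it was the strongest distal one here, was 70.6% G and C. Its 3 shared footprints, in capitals, covered 107 of 180 bases, and it held a GC box.

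The call at Foxq1, a factor of stomach and other epithelia, depended on the annotation. GENCODE places its first base 2036 bp before the RefSeq start, at 31556134 instead of 31558170, and no peak lay within 1 kb of the GENCODE start. Across the RefSeq start lay a shared region, chr13:31558041-31558440, with 4.73 in replicate 1 and 4.74 in replicate 2. It held 6 shared footprints, the most among the shared regions of this neighbourhood. The coding gene A530084C06Rik, on the opposite strand, starts 1092 bp away from its centre.

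**Figure D3:**
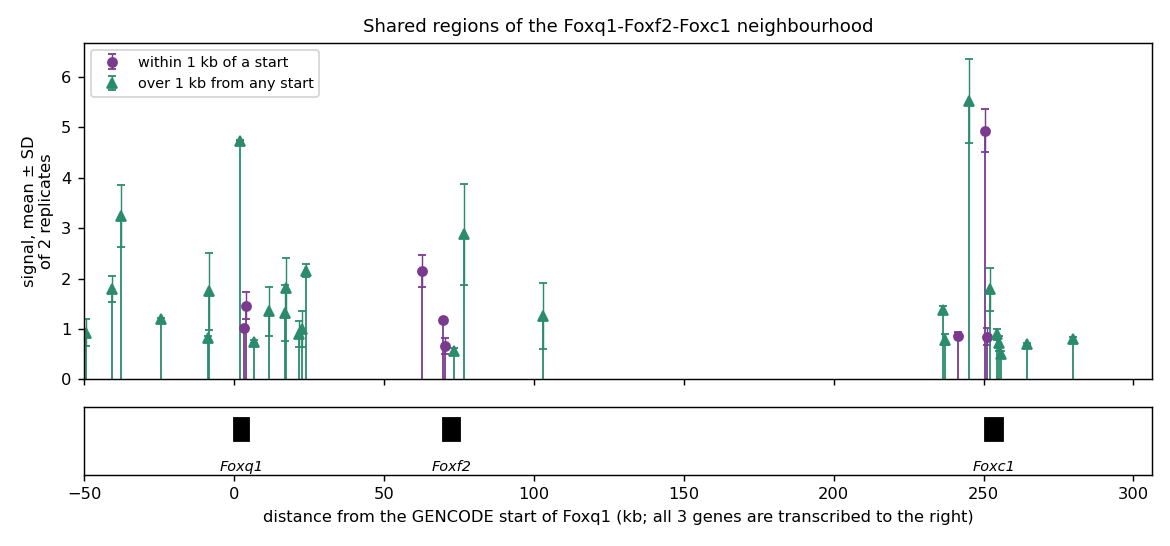
Shared regions around Foxq1, Foxf2 and Foxc1, with mean signal and SD of the 2 replicates against distance from the GENCODE start of Foxq1 in kb; circles are regions centred within 1 kb of a GENCODE start, triangles the others, black boxes the 3 genes. The tallest points are the region upstream of Foxc1 at 5.53, the Foxc1 promoter at 4.93 and the region at the RefSeq start of Foxq1 at 4.74.

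Among the members known from endoderm and epithelium, Foxa3, a liver and gut relative of Foxa1, had 8.55 and 8.07. That peak was 753 bp from its own start and 86 bp from the start of Sympk on the opposite strand. At the start of Foxa3 itself a weaker region had a mean of 0.917 ± 0.0598. Foxa2, the endoderm pioneer factor, had 0.448 and 0.368, in peaks centred 700 and 723 bp downstream of its nearest start. It was lost with the stricter list. A region 1682 bp upstream of its start, outside the promoter window, had 1.99 and 1.64. Foxi3, an ectodermal factor of teeth and hair, had 0.817 and 0.488, and Foxn1, the thymus and hair factor, had 1.00 and 0.887. Foxe1, the thyroid factor, had a peak of 0.480 in replicate 2 alone, although 9 distal shared regions lay around it. The most accessible of these, 38688 bp upstream, had 4.0 and 3.0.

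Foxj1, the master gene of motile cilia, stood apart from most of this group with 7.49 in replicate 1 and 6.36 in replicate 2, at a peak 42 bp upstream of its start. The nearest start of another coding gene was 12003 bp away. The part of the peak before the start, chr11:116335400-116335540, is shown as the strongest promoter of the group that was nearest to its own gene.
Foxj1 promoter: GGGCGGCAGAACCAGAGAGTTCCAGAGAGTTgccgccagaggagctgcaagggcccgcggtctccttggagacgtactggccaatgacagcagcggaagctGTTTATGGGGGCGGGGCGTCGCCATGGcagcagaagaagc
The 2 shared footprints, in capitals, covered 58 of 141 bases. The stretch held a CCAAT box, GC boxes and GACGC, the core that some forkhead proteins read as an alternative to TGTTTAC and that 32.8% of all promoter regions held. The first footprint began with a GC box, and the final one spanned another and GACGC on its other strand. Of the 9 found genes of the cilia list 8 were open, beside 66% of all genes, with a median of 1.88. Of these 9, 5 were CpG-rich, a class open in 96.4% of all its genes. Mcidas and Gmnc, which start the multiciliated cell programme, had 2.06 ± 0.517 and 0.452 ± 0.0280. Rfx2, which works with Foxj1 on cilia genes, had 11.8 ± 1.48, and the dynein gene Dnah5, part of the moving apparatus, had no promoter peak. The remaining open genes of the list were Ccno at 8.43 ± 0.706, Rfx3 at 6.16 ± 1.27, Ccdc39 at 1.70 ± 0.527, Myb at 1.29 ± 0.182 and Tekt1 at 1.14 ± 0.190.

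Foxi1, the factor of acid-secreting and ion-transporting cells, had no promoter peak. Of the 9 genes of that programme 5 were open (55.6%), close to the 66% of all genes, with a median of 0.627. Only 1 of the 9 was CpG-rich, and promoters that are not CpG-rich were open in 41.7% of all cases. Its defining proton pump genes Atp6v1b1 and Atp6v0d2 and the bicarbonate exchanger gene Slc4a1 had no peak, while Tfcp2l1, a factor also found in other epithelia, had 4.77 ± 1.28. The remaining open genes of the programme were Slc4a9 at 1.78 ± 0.602, Atp6v1c2 at 0.627 ± 0.129, Cftr at 0.587 ± 0.141 and Slc26a4 at 0.577 ± 0.171. Foxi2 had a single shared region in its window, 6687 bp upstream, with 2.05 and 1.10.

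Members placed in the group of nervous system, lens and early embryo gave low values where they had a promoter peak. This depends on the grouping. Foxo6, best known from the brain, was placed in the mostly widely expressed group and had 7.25 and 7.74. Foxp2, placed there too, had 2.34 and 1.81. Foxe3, a lens gene, had 0.594 and 0.791. Foxd4 had 0.396 and 0.520, and Foxb1, known from the hypothalamus, had 0.328 and 0.368. In replicates 1 and 2 these peaks were centred downstream of the start, by 642 and 675 bp at Foxe3 and 855 and 868 bp at Foxd4. At Foxb1 it was 893 and 866 bp. Foxd3, a neural crest gene, had 0.443 and 0.520 in peaks that did not overlap, and Foxb2 had 0.359 in replicate 1 only. At Foxb1 the intervals were 0.252 to 0.420 and 0.269 to 0.490. Its value exceeded that of 0.518% of open genes. Of the gonad and germ line group, Foxl2, the ovary factor, had 0.994 and 1.25, whereas Foxr1 and Foxr2 had none.

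Many forkhead promoters are rich in CpG dinucleotides. A promoter was called CpG-rich where the sequence within 500 bp of the 5′ end of the gene had at least 50% G and C and an observed over expected CpG ratio of at least 0.6. This held for 31 of 43 members, beside 44.4% of all genes. Of these 31 members 25 were open, beside 96.4% of all CpG-rich promoters. The 6 that were not open were Foxb2, Foxd3, Foxe1, Foxl1, Foxn4 and Foxr1. Of the 12 other members 6 were open, beside 41.7% of such promoters, and these were Foxa2, Foxa3, Foxd4, Foxj3, Foxn1 and Foxs1. Foxj3 was classed by its most upstream annotated start, which had no peak and lies 2657 bp before the RefSeq start. Likewise Foxq1 was classed as not CpG-rich at a start without a peak, 2036 bp before its RefSeq start. Foxp3 was classed as CpG-rich at a start 6032 bp before its RefSeq start.

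**Figure D4:**
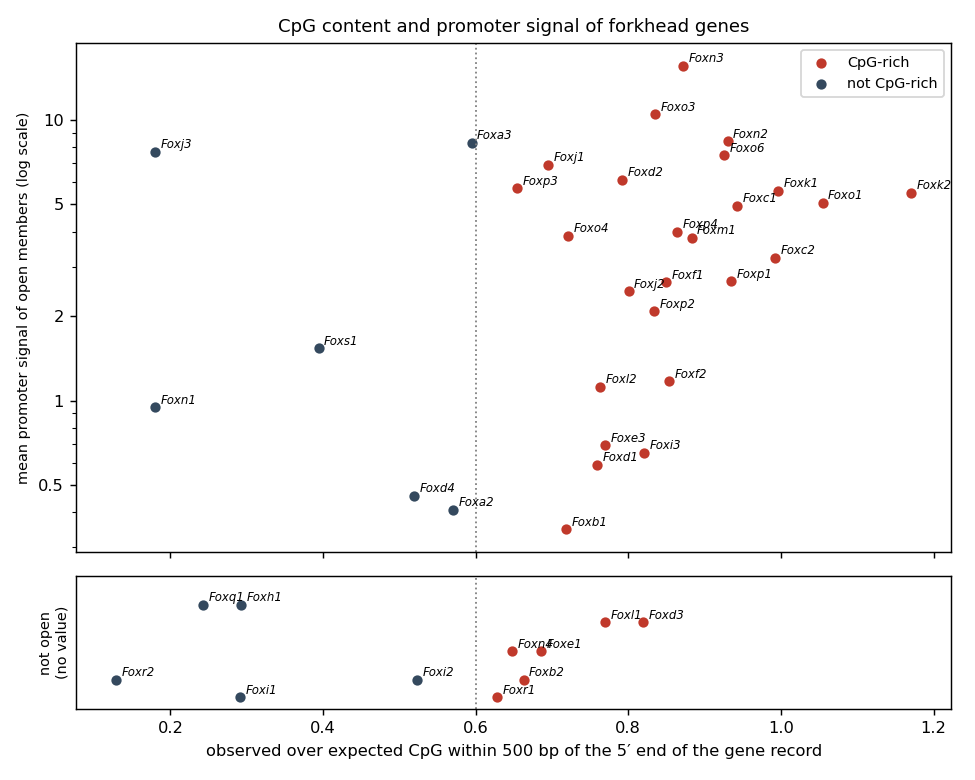
Observed over expected CpG within 500 bp of the 5′ end of each forkhead gene against its mean promoter signal on a log axis (upper panel, 31 open members), with members that were not open below at heights that carry no value; the dotted line marks a ratio of 0.6. CpG-rich members span signals from Foxb1 at 0.348 to Foxo3 at 10.5, and the higher point of Foxn3 pairs the CpG ratio of its 5′ end with the signal of an internal start.

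Other families of transcription factor genes gave a range of counts. Open promoters were found at 25 of 39 Hox genes (64.1%), 15 of 19 Sox genes (78.9%), 8 of 13 Tbx genes (61.5%) and 15 of 17 Klf genes (88.2%). All protein-coding genes stood at 66%. Median signals were 2.28, 1.83, 2.28 and 8.39, beside 4.62 for all open genes. CpG-rich were 24 of the 39 Hox, 16 of the 19 Sox, 6 of the 13 Tbx and 14 of the 17 Klf genes. These are counts side by side, with no test between families.

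A footprint of both replicates lay within 1 kb of a start in 28 of 43 members, beside 61.9% of all genes. That was 27 of the 31 open members and Foxd3. The 4 open members without one were Foxa2, Foxb1, Foxd4 and Foxl2. Foxp4 had the most, 10 shared footprints over its 3 start clusters, followed by Foxo6 and Foxp1 with 9 each. An FDR of 0.001 or lower in both replicates was found at 28 members, beside 62.4%.

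In the window of each gene and 50 kb on both sides, members had a median of 10 shared regions and up to 32, and all protein-coding genes a median of 7. Per 100 kb the medians were 7.85 and 4.92. Counted once, the windows held 411 shared regions, 244 of replicate 1 only and 33 of replicate 2 only. Of these 59.7% were shared, beside 50.6% of all regions. Of the 411, 188 were within 1 kb of a start, and at 118 of those the nearest start belonged to a gene outside the family. The other 223 were distal, and for 155 of them the nearest coding start was a member's.

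The 8 members with most shared regions per 100 kb were Foxr1 (19.6), Foxa3 (15.4), Foxq1 (15.3), Foxh1 (14.7), Foxj2 (13.6), Foxl1 (12.7), Foxj1 (12.4) and Foxc2 (11.7). Their make-up differed. Around the germ line gene Foxr1 18 of 21 regions were promoters of other genes, among them 4 at Upk2, a uroplakin gene of the urothelium, the strongest with 5.27 and 3.68. Around Foxh1, a partner of Smads in the early embryo, 14 of 15 were. Around Foxq1 14 of 16 were distal, as were 8 of 13 around Foxj1. Foxp1 had the most in number, 32 over 697.4 kb, of which 19 were distal.

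**Figure D5:**
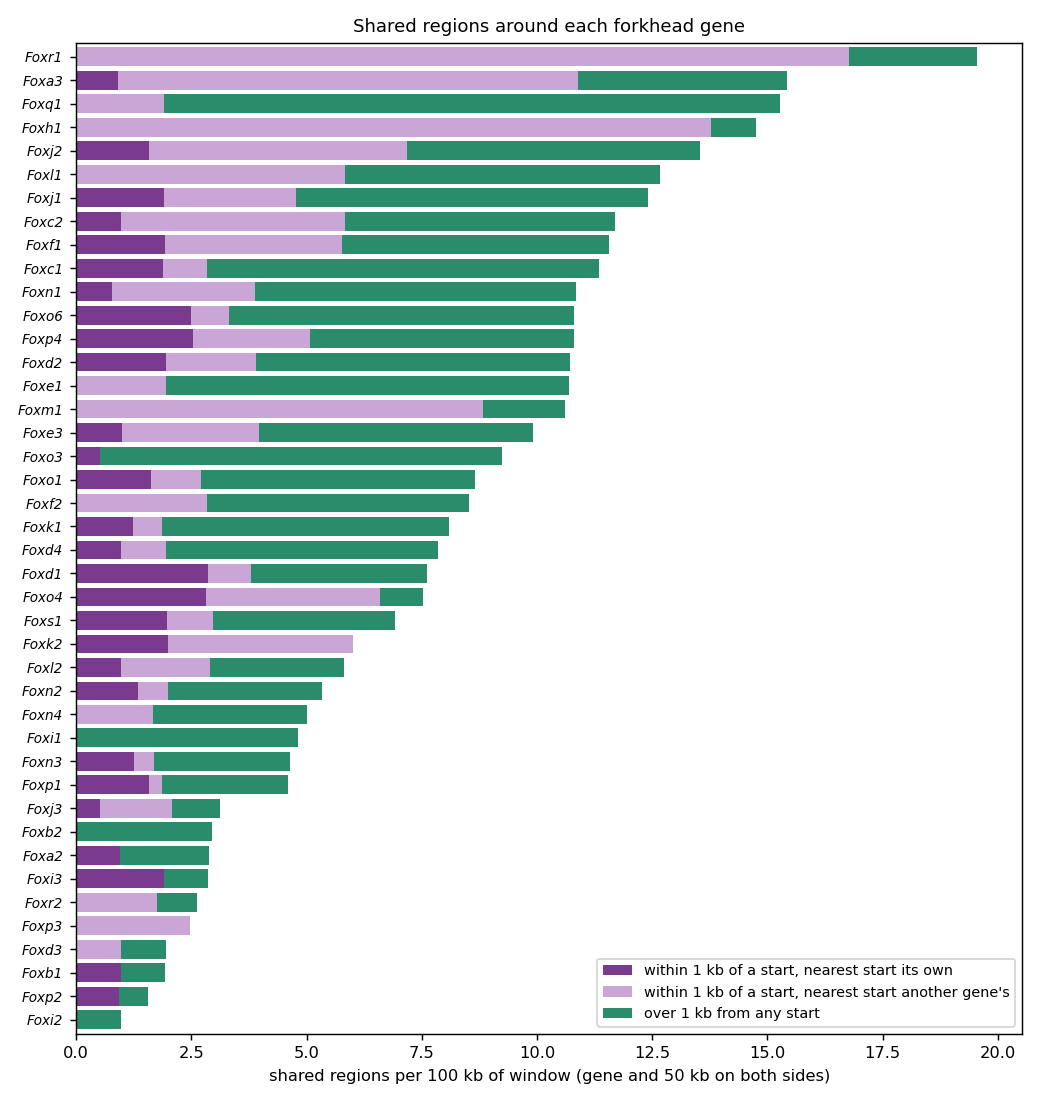
Shared regions per 100 kb in the window of each forkhead gene described and 50 kb on both sides, split by colour into regions within 1 kb of a start whose nearest start is the gene's own, those whose nearest start is another gene's, and regions over 1 kb from any start. The bars run from 19.6 at Foxr1, mostly starts of other genes, to 0.97 at Foxi2.

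Away from starts, the highest signal in any member window was 34066 bp upstream of Foxk1, chr5:142367321-142367540, with 11.3 in replicate 1 and 14.2 in replicate 2. It was above 99.2% of all shared regions and higher than the Foxk1 promoter in both replicates. Next were the Foxo3 peak 1026 bp upstream of its start and the region upstream of Foxc2. A region in an intron of Foxk1, chr5:142440501-142440800, had 8.43 and 6.40, and a second one upstream of Foxo3, at 1406 bp, had 7.04 and 6.42.

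The forkhead sequence TGTTTAC, searched on both strands in 200 bp at the centre of each region, was found in 14 of 411 member regions (3.41%, exact binomial 95% interval 1.88 to 5.65), beside 3.05% of all shared regions. In promoter regions it was 7 of 188 (3.72%, 1.51 to 7.52), beside 1.88%, and in distal ones 7 of 223 (3.14%), beside 3.74%. The related TGTTTGC was in 4.38% of member regions and 4.38% of all. Some of these matches are shown because they place a forkhead sequence in accessible chromatin of a forkhead gene, each with 12 bases on both sides, along the strand that reads TGTTTAC, in capitals.
Foxk1 intron, chr5:142440543-142440573, plus strand: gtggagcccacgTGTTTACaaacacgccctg
Foxp1 start, chr6:99523012-99523042, minus strand: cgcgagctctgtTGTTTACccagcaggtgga
Fendrr and Foxf1, chr8:121083221-121083251, plus strand: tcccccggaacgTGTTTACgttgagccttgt
Foxo3 intron, chr10:42251452-42251482, minus strand: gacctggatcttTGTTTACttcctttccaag
Downstream of Foxj1, chr11:116327414-116327444, plus strand: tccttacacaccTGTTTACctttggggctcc
Internal Foxp4 start, chr17:47888132-47888162, plus strand: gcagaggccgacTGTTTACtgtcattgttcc
The region of the Foxk1 site had 8.43 and 6.40, that of Foxp1 2.82 and 2.50, that of Fendrr 1.09 and 1.09, that of Foxo3 3.06 and 2.45, that of Foxj1 3.48 and 2.95, and that of Foxp4 1.82 and 1.18. A match is a description of the sequence and not a bound site.

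Footprints rarely fell on that sequence. Of 609 shared footprints in the member windows, each extended by 5 bp on both sides, 1 held TGTTTAC (0.164%, exact binomial 95% interval 0.00416 to 0.912), beside 127 of 114331 over all shared footprints (0.111%). It was the match downstream of Foxj1. With TGTTTGC allowed as well, 3 of 609 did (0.493%), beside 0.425%. A difference from all footprints was not detectable at this number.

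Other short motifs were also counted on both strands in the member regions. Among distal regions GACGC was in 16.1% of members' and 10.3% of all, and the GC box in 18.8% and 11.2%. The AP-1 sequence TGANTCA was in 11.7% and 15.2%, the TEAD sequence GGAATG in 13% and 14.6%, and the GATA sequence AGATAA in 7.17% and 8.41%. The GLI sequence GACCACCCA was in 2 of 411 member regions (0.487%), beside 87 of all 73159 shared regions (0.119%). These were 1 at Upk2 in the Foxr1 window and 1 at Nlgn3 in the Foxo4 window. None of the 14 shared regions of the Foxf1 neighbourhood or the 35 of the Foxq1 neighbourhood held it. For so rare a sequence these are too few regions for its absence to be read as a result.

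At 29 of 31 open members the strongest peaks of the replicates overlapped. The intervals overlapped at 18 and were apart at 13, of which 11 were higher in replicate 1 and 2, Foxk1 and Foxo1, in replicate 2. In all, 21 of 31 were higher in replicate 1, beside 82.4% of all open genes. The log2 ratio of replicate 1 over replicate 2 had a median of 0.16 and an SD of 0.35 over members, and 0.25 and 0.30 over all open genes. These ratios are of deposited signals whose scaling is not known.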

How the data were processed

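DNase-seq libraries of 2 bladder samples of 1 group were used. Per the notes deposited with each sample, peaks, footprints and FDR tracks were made from 1 library each on mm10. No aligner or caller is given in the sources used here, and how reads of the hybrid's CAST/EiJ copy aligned to this reference is not known. The deposited peak signal is the authors' density per peak, all multiples of 1 step per library within 0.02 steps. The deposited FDR track holds the authors' p-value or q-value type of number, listed only under 0.05. Each deposited footprint has the value 0.01, used as a position only.

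Peaks overlapping by at least 1 bp were joined to regions, and likewise footprints. Gene starts came from GENCODE M21, with RefSeq curated starts as an alternative, and sequence from RefSeq GRCm38.p6, the same build. Regions were called promoter or distal by their centre, within 1 kb of any annotated start or not. Coordinates are 1-based. No test was made: counts and medians are set beside all protein-coding genes or regions, and genes are not replicates. Both labels name the same donor record, and nothing in them says whether the 2 libraries share animals, so an SD may not be one between separate animals. Motifs were searched on both strands.

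Named were all open members, those with a peak in 1 replicate, the 6 neighbourhood genes, the 8 with most regions per 100 kb, members without a promoter peak, and the strongest distal regions. The members and lists were chosen with earlier results of these data known. Scripts ran in Python 3.11.15 with pandas 2.3.3, numpy 2.4.6, scipy 1.17.1 and, for plots, matplotlib 3.10.9. The code of the open call was checked on simulated data, where 300 of 300 planted promoters (100%) were found among 21938 genes. Their peaks were planted at starts and overlapping, so that they met the rule. The check therefore does not show how well real or weak peaks are found. Alternatives were the stricter list, equal peak numbers, overlap of at least 50% of the shorter peak, other distances and flanks, single replicates and other start sets. Values of 1 member and of 1 listed gene are not reported here.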

Additional observations from a re-analysis of the deposited data

How the results depend on the processing

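The count of open members, 31, ranged from 27 to 35 over all alternatives tried. The stricter list and 500 bp around starts gave 27 and lost Foxa2, Foxb1 and Foxd4 in both. With 2500 bp it was 35 and gained Foxd3, Foxh1, Foxl1 and Foxq1. RefSeq starts, chosen after seeing the data, gave 30, without Foxn3 and Foxp3 and with Foxq1. Leaving out a replicate gave 33 each time, and a median signal of 2.83 to 3.92 in place of 3.795. The median of 10 shared regions per window became 6 with the stricter list, 4 with a flank of 10 kb and 1 in the gene body alone, where less sequence is counted. With single replicates it was 12 to 15. The neighbourhood of Foxq1, Foxf2 and Foxc1, with 35 shared regions, had 22 in the stricter list and 42 to 55 in single replicates. Members with a promoter footprint, 28, ranged from 24 to 33. The share of footprints with TGTTTAC, 0.164%, was 0 of 609 with no extension and 0 of 116 within 1 kb of a start. Promoter signals of 7 open genes moved by more than 1 SD. At 500 bp Foxn3 became 4.97, Foxo3 4.73, Foxa3 0.917, Foxs1 0.956 and Foxl2 0.633, at 2500 bp Foxa2 became 1.82, and with RefSeq starts Foxp1 became 1.58. Leaving out 1 of 2 replicates cannot move a mean by more than 1 SD. No paired analysis was possible because the samples form 1 group. With 2 replicates an SD rests on 1 difference, and weak peaks near the lists' lowest signals, 0.0417 and 0.0560, are the least certain.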
